A study of Mus musculus with 8 samples.

Results

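Collagen chain genes encode the alpha chains that wind around each other as the collagen triple helix, the main scaffold of the extracellular matrix. They were taken here as every gene whose symbol in the deposited table is Col, a number, a and a number. There were 44 such genes among 53801 listed, and 39 of them passed the count filter. The libraries came from stromal cells negative for CD45, which marks leukocytes, and CD31, which marks endothelium, sorted from small-intestinal ulcers of LTβRYFP mice that had received indomethacin, an anti-inflammatory drug whose known side effect is gut ulceration. Cells with YFP (YFP+) gave 4 libraries and cells without it (YFP-) gave 4, numbered 1 to 4 in each, and all 8 shared the indomethacin treatment; untreated mice were not analysed here. Strain, age, the promoter that drives YFP and whether a library is a separate mouse were not given in the sources used here, so the p-values speak only of the spread among these samples, which may be technical.

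As background, fibrillar collagens (types I, III and V among them) form the tensile fibrils of the interstitium, and type IV chains build the sheet of the basement membrane under epithelium, around smooth muscle and around vessels. FACIT collagens (fibril-associated, with interrupted helices) sit on the surface of fibrils. Multiplexins such as types XV and XVIII carry glycosaminoglycan chains and lie in basement membrane zones, and type VI collagen forms beaded microfilaments at the border between cells and interstitium. In the gut wall, fibroblasts are the main source of the fibrillar chains. In bulk libraries, fewer cells of a type and less RNA per cell cannot be told apart.

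The total count per library ranged from 12481608 to 29385718, and collagen chains took 3.42% to 6.18% of it. Both libraries of replicate number 2 held the lowest collagen shares of their group and lay apart on the first principal component, at 64.2 and 59.8 against -35.1 to -8.49 for the others. Marker genes of the sort and of cell types were read in CPM, the TMM-normalised count scaled to the library size. Pdgfra, a fibroblast receptor, was at 1668 ± 266 CPM in YFP- and 1669.8 ± 312 CPM in YFP+ cells (n = 4). Ptprc, which encodes the CD45 of the sort, was at 2.60 and 5.52 CPM. Pecam1, which encodes CD31, was low but not absent at 25.9 and 28.6 CPM, and the epithelial gene Epcam was at 1.25 and 5.48 CPM. Ltbr, the lymphotoxin beta receptor gene in the reporter's name, was at 71.3 ± 13.8 CPM in YFP- and 79.7 ± 14.1 CPM in YFP+ cells (n = 4), a difference within the spread between replicates (adjusted p = 0.613, edgeR).

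Collagen chains changed in both directions between YFP+ and YFP- cells. Type III and type I chains, the collagens with the highest CPM in these cells, fell to between 0.718 and 0.768 of their level, together with Col5a2 and the fibril-surface chains Col14a1 and Col16a1. Col18a1, the type VI chains Col6a4 and Col6a5, the type IV chain Col4a6, the minor fibrillar chain Col27a1, Col22a1 and the membrane-spanning chain Col13a1 rose. With the replicate number as a block, 7 of 39 tested members rose and 6 fell; 33.3% of the members were called, against a background of 2.28% of all 15945 genes tested (0.696% higher and 1.59% lower). Among genes with a mean of at least 10 CPM, 13 of 27 members were called against 3.96% of 8768 genes. The tested members had a median level of 84.9 CPM against 12.9 CPM over all genes tested. Called shares at matched abundance were not computed. The median log2 fold change was -0.06 over the tested members and 0.0048 over all genes tested, and the median absolute value was 0.29 against 0.17. All 13 called members moved the same way in 4 of 4 pairs of equal replicate number. Over the 39 tested members, 9 were higher and 9 lower in 4 of 4 pairs. Because the blocked test favours genes that move alike in the pairs, this is no separate support for the calls.

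The calls rest on the pairing. Without the block edgeR called 0 of the 39 members and 0 of all genes (lowest adjusted p = 0.99985). At an unadjusted p under 0.05 it had 2 members higher and 2 lower, 10.3% of the members against 2.04% of all genes. The higher ones were Col6a4 and Col22a1. The lower ones, Col8a1 and Col28a1, were not called by edgeR with the block. None of the 6 members called lower with the block reached an unadjusted p under 0.05 without it. DESeq2 with the block called 8 members higher and 5 lower, against 3.01% of all genes, and 11 of its 13 were among those edgeR called. The groups did not overlap in 1 of 39 members, Col6a4, whose YFP+ libraries were all above; over all genes, 0.69% had all YFP+ libraries above, 0.859% all below, and 1.55% either. Without both libraries of replicate 3 the blocked test called 2 members higher and 2 lower (40 tested), against 38 and 119 of 15945 genes. Without those of replicate 4 it called 2 and 4 (39 tested), against 47 and 120 of 15974 genes.

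**Figure D1:**
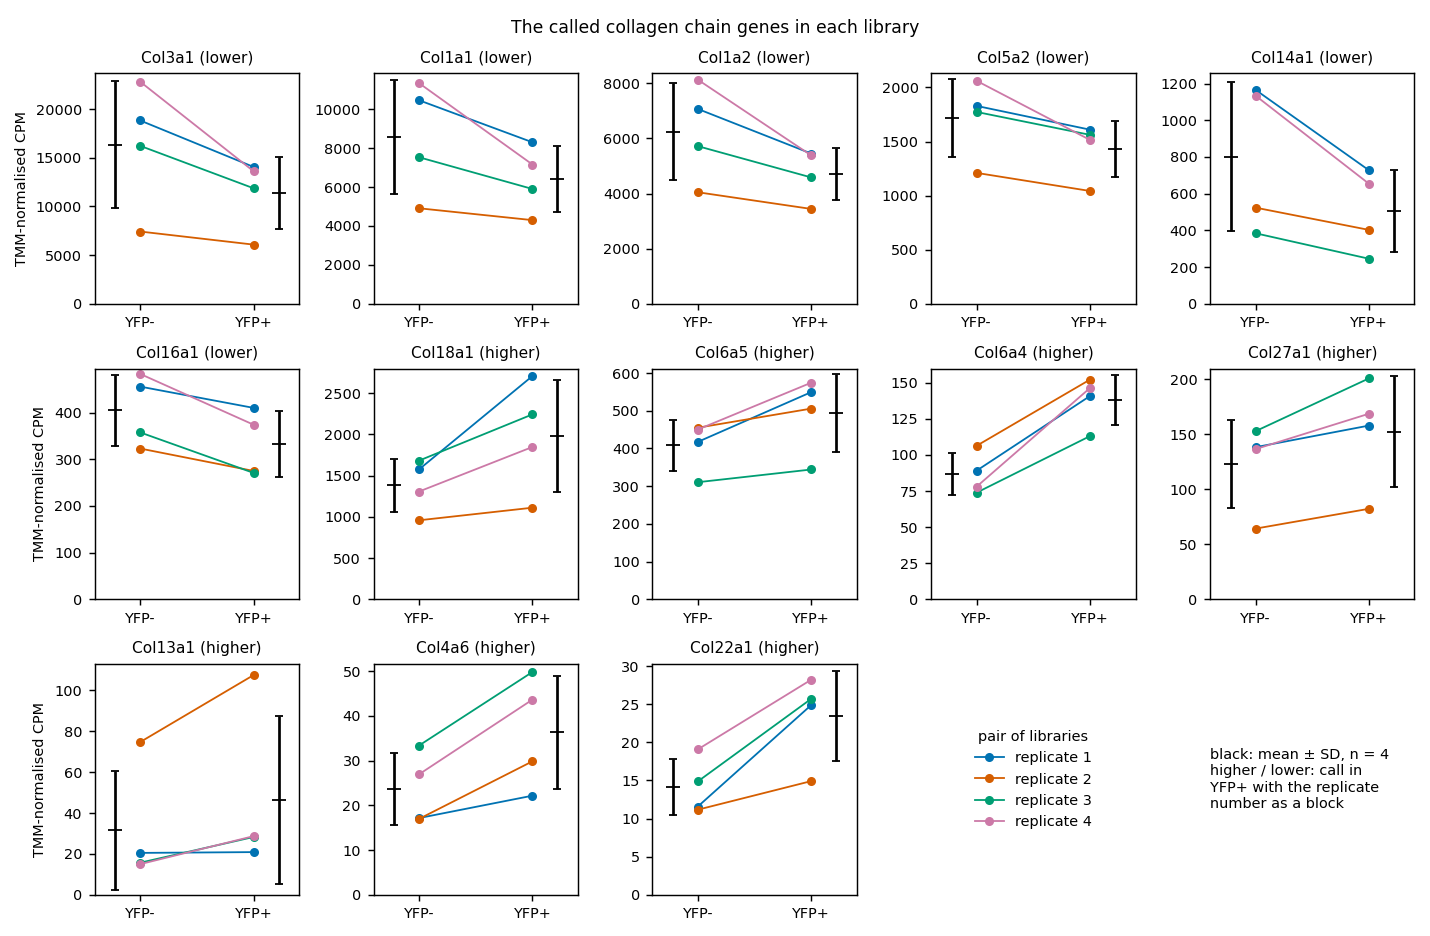
TMM-normalised CPM of the 13 called collagen chain genes in each of the 8 libraries; each coloured line joins the YFP- and YFP+ library of 1 replicate number, and black marks are the mean ± SD of 4 libraries. All lines of a gene slope the same way, and only in Col6a4 do the groups not overlap.

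Among the fibrillar chains, 4 of 10 tested members fell, 1 rose and 5 were not called. Col3a1, the single chain of type III collagen (ENSMUSG00000026043, GRCm38 chromosome 1, 45311538 to 45349706, plus strand), stood at 18837, 7419.9, 16229 and 22823 CPM in YFP- replicates 1 to 4. In YFP+ replicates 1 to 4 it stood at 14058, 6073, 11864 and 13612 CPM. Each YFP+ library was below its YFP- counterpart, and both libraries of replicate number 2 were far below the others of their group. Its log2 fold change was -0.48 (95% confidence interval -0.64 to -0.32; adjusted p = 0.00238, edgeR). Col1a1, the chain that dominates the type I heterotrimer (ENSMUSG00000001506, GRCm38 chromosome 11, 94936224 to 94953042, plus strand), was at 10467, 4909, 7534 and 11349 CPM in YFP- and 8304, 4299, 5901 and 7159 CPM in YFP+ replicates 1 to 4. Col1a2, its partner chain (ENSMUSG00000029661, GRCm38 chromosome 6, 4504814 to 4541544, plus strand), was at 7072, 4047, 5721 and 8135 CPM and 5450.3, 3441, 4584 and 5383 CPM in the same order. Both type I chains showed the order of the libraries seen for Col3a1, with replicate 4 highest among YFP- and replicate 2 lowest in both groups. Their log2 fold changes were -0.39 and -0.38 (95% confidence intervals -0.54 to -0.23 and -0.53 to -0.24; adjusted p = 0.0113 and 0.00661, edgeR).

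The ratio of Col1a1 to Col1a2 per kb of exon was 2.56 ± 0.215 in YFP- and 2.55 ± 0.231 in YFP+ libraries, and it was higher in the YFP+ library of 2 of 4 pairs. Per kb of the longest protein-coding transcript the same ratio was 1.22 and 1.22, because the annotated exons of Col1a2 add up to 12426 bases while its longest coding transcript has 5348. Col3a1 against Col1a1 per kb of exon was at 1.25 ± 0.187 in YFP- and 1.17 ± 0.176 in YFP+ libraries, lower in the YFP+ library of 4 of 4 pairs; this difference was not tested. The calls of Col3a1 and Col1a1 were not shared by DESeq2 with the block (adjusted p = 0.567 and 0.294, DESeq2), which called Col1a2 at an adjusted p of 4.7e-08. DESeq2 left the dispersion of Col3a1 and Col1a1 at their own estimates, 0.0705 and 0.0275, as outliers from trend values of 0.00296 and 0.00300, and moved that of Col1a2 from 0.0156 to 0.00349. Without replicate 3, edgeR gave an adjusted p of 0.109 for Col1a1 and 0.0671 for Col1a2.

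Type V collagen nucleates type I fibrils and sets their width. Col5a2 was at 1829, 1209.8, 1774 and 2061 CPM in YFP- and 1609, 1042, 1561 and 1514 CPM in YFP+ replicates 1 to 4, with a log2 fold change of -0.26 (95% confidence interval -0.39 to -0.12; adjusted p = 0.0486, edgeR). Col5a1, its partner in the main type V trimer, was at 2372, 1282, 2065 and 2172 CPM and then 2385, 1165, 2023 and 1901 CPM in the same order and was not called (-0.09, adjusted p = 0.700, edgeR). The groups overlapped for both. The ratio of Col5a1 to Col5a2 per kb of exon was 1.29 ± 0.129 in YFP- and 1.45 ± 0.170 in YFP+ libraries, higher in the YFP+ library of 4 of 4 pairs. This difference was not tested. Per kb of the longest protein-coding transcript the ratio was 0.901 and 1.01, above 1 in 3 of 8 libraries instead of 8 of 8. Col5a3 had a log2 fold change of -0.25, lower in 4 of 4 pairs, and missed the threshold (adjusted p = 0.0811, edgeR). The call of Col5a2 was lost in 6 of 13 other blocked settings, the removal of any single replicate number among them (adjusted p = 0.0866, 0.0889, 0.176 and 0.237 without numbers 1 to 4, edgeR).

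Col27a1, a fibrillar chain best known from cartilage (ENSMUSG00000045672, GRCm38 chromosome 4, 63214004 to 63334991, plus strand), went the other way. It was at 138, 64.2, 153 and 136 CPM in YFP- and 158, 82.2, 201 and 169 CPM in YFP+ replicates 1 to 4, lowest in both libraries of number 2. Its log2 fold change was 0.31 (95% confidence interval 0.16 to 0.46; adjusted p = 0.0255, edgeR), and the call was lost without number 2, 3 or 4 (adjusted p = 0.0543, 0.193 and 0.108, edgeR). Col24a1, the chain most like it, was at 30.9 ± 10.7 CPM in YFP- and 37.1 ± 18.1 CPM in YFP+ cells (n = 4; adjusted p = 0.645, edgeR). The cartilage chains Col11a1 and Col11a2 were low, at 0.505 and 4.26 CPM in YFP- cells, and Col2a1 was too low to test, with 11 counts summed over YFP- libraries and 29 over YFP+ ones.

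The 250 bases before the RefSeq start (GRCm38.p6) are shown for Col3a1, the most abundant chain that fell, and Col27a1, the fibrillar chain that rose. They were picked among the 5 called members whose window holds no annotated exon base. Each is printed 5′ to 3′ on the strand of the gene, with capitals for every match on either strand to the TATA box letters TATAAA, the CCAAT box letters CCAAT, the GC box letters GGGCGG or the AP-1 letters TGANTCA.
Col3a1 (chr1:45311288-45311537, plus strand): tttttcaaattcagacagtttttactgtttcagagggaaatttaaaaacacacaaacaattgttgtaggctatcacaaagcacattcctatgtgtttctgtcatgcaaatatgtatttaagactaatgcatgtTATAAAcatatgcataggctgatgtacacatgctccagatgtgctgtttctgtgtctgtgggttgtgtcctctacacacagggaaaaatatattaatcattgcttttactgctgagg
Col27a1 (chr4:63215162-63215411, plus strand): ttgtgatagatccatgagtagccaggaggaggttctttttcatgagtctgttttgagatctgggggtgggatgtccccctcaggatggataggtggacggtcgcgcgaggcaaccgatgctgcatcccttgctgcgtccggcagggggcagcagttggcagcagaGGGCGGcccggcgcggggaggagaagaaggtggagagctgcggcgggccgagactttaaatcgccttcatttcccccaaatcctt
The Col3a1 window held 35.2% G and C and 1 TATAAA match, 117 bases before the start, and the Col27a1 window held 59.6% and 1 GGGCGG match. Over all 32851 promoter windows of this length, 12.4% held TATAAA, 33.8% CCAAT, 32.7% GGGCGG and 6.75% TGANTCA. Over the 38 windows of the 35 members with an entry, the shares were 13.2%, 34.2%, 57.9% and 2.63%. The median share of G and C was 59.0% for the members and 52.4% for all promoters. Its part in the GGGCGG share was not tested. No motif of the 4 was found in both printed windows.

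**Figure D2:**
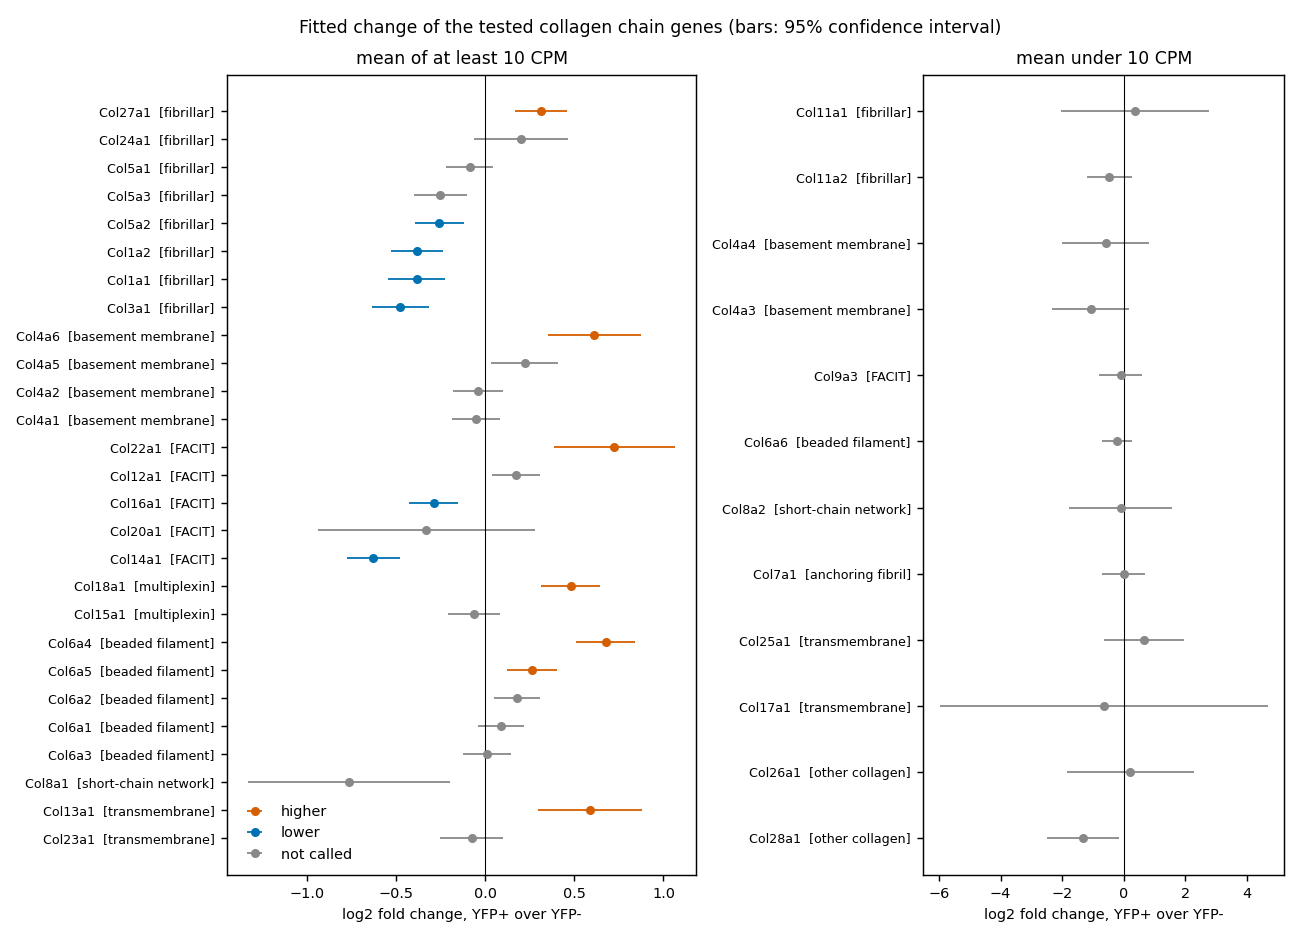
Log2 fold change of YFP+ over YFP- cells for the 39 tested members from the blocked edgeR fit, with 95% confidence intervals, grouped by class and split at a mean of 10 CPM; colours give the call at an adjusted p of 0.05. Called members lie on both sides of 0 among the 27 at or above 10 CPM, and none of the 12 below 10 CPM was called.

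The basement membrane chains held 1 called member among 6 tested. Col4a1 and Col4a2 form the common type IV trimer. Col4a2 was at 2233, 3315, 3081 and 2168 CPM in YFP- and 2477, 2986, 3063 and 1958 CPM in YFP+ replicates 1 to 4, and Col4a1 at 3632, 5681, 5244 and 3360.2 CPM in YFP- and 3858, 5168, 5172 and 3057 CPM in YFP+ replicates 1 to 4. Unlike Col3a1, Col1a1 and Col1a2, which were lowest in replicate 2 of each group, Col4a1 was highest in replicate 2 among YFP- libraries and in replicates 2 and 3 among YFP+ ones. Their log2 fold changes of -0.05 and -0.04 had 95% confidence intervals of -0.19 to 0.08 and -0.18 to 0.10 (adjusted p = 0.879 and 0.926, edgeR), and with library sizes alone they turned to 0.04 and 0.05. The genes lie head to head, with annotated starts 21 bases apart (chromosome 8, Col4a1 at 11312826 on the minus and Col4a2 at 11312805 on the plus strand), and their ratio per kb of exon stayed between 1.37 and 1.54 over all 8 libraries.

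Col4a5 and Col4a6 also lie head to head, 1309 bases apart, and together build the type IV network of smooth muscle and some epithelial basement membranes. Col4a6 (ENSMUSG00000031273, GRCm38 chromosome X, 141165403 to 141474076, minus strand) was at 17.1, 17.0, 33.4 and 26.9 CPM in YFP- and 22.1, 29.8, 49.8 and 43.6 CPM in YFP+ replicates 1 to 4. It was 1.29-fold to 1.76-fold higher in the YFP+ library of each pair, although the groups overlapped. The log2 fold change was 0.61 (95% confidence interval 0.35 to 0.87; adjusted p = 0.0133, edgeR), and the call was lost without number 3 or 4 (adjusted p = 0.117 and 0.0834, edgeR). Col4a5, at 73.2, 48.5, 78.2 and 116 CPM and then 79.8, 61.3, 107 and 115 CPM in the same order, was higher in 3 of 4 pairs and was not called (log2 fold change 0.22, adjusted p = 0.313, edgeR). Per kb of exon, Col4a6 was at 0.262 ± 0.0800 in YFP- and 0.339 ± 0.0800 in YFP+ libraries relative to Col4a5, higher in 4 of 4 pairs; this difference was not tested. Smooth muscle markers moved beside it: 2 of 8 rose and 0 fell, against 0.696% and 1.59% of all genes tested. These markers summed to 394 to 776 CPM in YFP- and 479 to 1103 CPM in YFP+ libraries, higher in 4 of 4 pairs. Their part in the rise of Col4a6 was not tested. Col4a3 and Col4a4, the chains of the kidney filter, were at 2.82 and 3.89 CPM in YFP- and 2.01 and 2.59 CPM in YFP+ cells and were not called (adjusted p = 0.551 and 0.862, edgeR).

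The window upstream of Col4a6, the called chain of this divergent pair, is printed with capitals as for Col3a1.
Col4a6 (chrX:141474077-141474326, minus strand): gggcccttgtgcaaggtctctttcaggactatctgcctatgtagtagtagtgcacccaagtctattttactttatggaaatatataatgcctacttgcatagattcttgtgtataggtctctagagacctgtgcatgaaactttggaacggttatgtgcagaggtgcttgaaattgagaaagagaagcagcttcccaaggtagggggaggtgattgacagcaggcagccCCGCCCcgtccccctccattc
It held 47.6% G and C and 1 match to GGGCGG, on the opposite strand, 21 bases before the start.

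Of the multiplexins, Col18a1, whose C-terminal fragment is endostatin (ENSMUSG00000001435, GRCm38 chromosome 10, 77052178 to 77166548, minus strand), was at 1574, 957, 1681 and 1306 CPM in YFP- and 2707, 1110.1, 2242 and 1847 CPM in YFP+ replicates 1 to 4. The largest step was in number 1 and the smallest in number 2, with folds of 1.72, 1.16, 1.33 and 1.41 in the pairs. Its log2 fold change was 0.48 (95% confidence interval 0.31 to 0.65; adjusted p = 0.00363, edgeR). Col15a1, its closest relative, was at 430.3, 141, 163 and 438 CPM and then 424, 121, 147 and 479 CPM in the same order. Both libraries of numbers 1 and 4 were high for Col15a1 and both of numbers 2 and 3 low, in each group, and it did not differ between groups beyond that spread, at a log2 fold change of -0.06 (95% confidence interval -0.21 to 0.08; adjusted p = 0.861, edgeR). Per kb of exon the ratio of Col18a1 to Col15a1 averaged 5.37 ± 3.04 in YFP- and 7.84 ± 4.45 in YFP+ libraries and was higher in the YFP+ library of 4 of 4 pairs; this was not tested.

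The beaded filament chains of type VI held 2 called members among 6 tested, both from the cluster of Col6a4, Col6a5 and Col6a6 on chromosome 9. Col6a4 (ENSMUSG00000032572, GRCm38 chromosome 9, 105989454 to 106096783, minus strand) was at 89.2, 106, 73.9 and 78.1 CPM in YFP- and 141, 152, 113 and 147 CPM in YFP+ replicates 1 to 4. The lowest YFP+ library lay above the highest YFP- one, and the log2 fold change was 0.68 (95% confidence interval 0.51 to 0.84; adjusted p = 2.0e-04, edgeR). Its neighbour Col6a5 (ENSMUSG00000091345, GRCm38 chromosome 9, 105856078 to 105960643, minus strand) was at 417, 455, 310.4 and 450.1 CPM and then 549, 506, 344 and 574 CPM in the same order. It was higher in every pair, with overlapping groups, at a log2 fold change of 0.26 (95% confidence interval 0.12 to 0.40; adjusted p = 0.0482, edgeR). The call of Col6a5 was lost without number 1, 3 or 4 (adjusted p = 0.217, 0.135 and 0.220, edgeR) and with RLE factors (0.0660). The third gene of the cluster, Col6a6, was at 8.17 and 6.84 CPM and was not called (log2 fold change -0.22, adjusted p = 0.844, edgeR).

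Col6a1 and Col6a2 pair with 1 of the longer chains in each type VI trimer. Col6a1 was at 2242, 2262, 2741 and 2538 CPM in YFP- and 2517, 2378, 3001 and 2503 CPM in YFP+ replicates 1 to 4, higher in 3 of 4 pairs without being called (log2 fold change 0.09, adjusted p = 0.700, edgeR). Col6a2 was at 2549, 2386, 3196 and 2846 CPM in YFP- and 3081, 2553, 3698 and 3116 CPM in YFP+ replicates 1 to 4. Col6a3, the usual longer chain, was at 2115, 1135, 2122 and 2325 CPM in YFP- and 2357, 1084, 2169 and 2195 CPM in YFP+ replicates 1 to 4. It was low in both libraries of number 2, and its log2 fold change of 0.01 had a 95% confidence interval of -0.12 to 0.14 (adjusted p = 0.983, edgeR). Per kb of exon, Col6a4 relative to Col6a3 was at 0.0717 ± 0.0402 in YFP- and 0.112 ± 0.0574 in YFP+ libraries, and Col6a5 relative to Col6a3 at 0.298 ± 0.144 in YFP- and 0.356 ± 0.167 in YFP+ libraries. Both ratios were higher in the YFP+ library of 4 of 4 pairs and highest in number 2, and neither difference was tested. Col6a2 was higher in 4 of 4 pairs at a log2 fold change of 0.18 without passing the edgeR test (adjusted p = 0.203). It was called by DESeq2 (adjusted p = 0.0493), voom (adjusted p = 0.0160) and edgeR with library sizes alone (adjusted p = 0.0150), and had an adjusted p of 0.0493 in the authors' deposited table. Annotated genes on the opposite strand share 289 of the 8526 exon bases of Col6a4. Reads in those bases cannot be told apart from theirs because the strand setting of the counting was not stated. The same holds for 16 exon bases of Col22a1, and 141 of Col3a1 are shared with a gene on its own strand. Over all members, 10 had an exon overlap with the opposite strand, and 2 of these were called, Col6a4 and Col22a1.

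The window upstream of Col6a5, which rose beside its neighbour Col6a4, is printed with the same use of capitals.
Col6a5 (chr9:105960644-105960893, minus strand): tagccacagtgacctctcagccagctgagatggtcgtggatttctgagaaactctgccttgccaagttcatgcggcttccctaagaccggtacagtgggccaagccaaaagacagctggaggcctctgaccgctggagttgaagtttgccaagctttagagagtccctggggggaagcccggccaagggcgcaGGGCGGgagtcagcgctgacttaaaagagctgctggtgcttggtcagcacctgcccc
It held 58.8% G and C and 1 match to GGGCGG, 57 bases before the start.

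Of 6 tested FACIT chains, 2 fell and 1 rose. Col14a1, which binds fibrils of type I collagen (ENSMUSG00000022371, GRCm38 chromosome 15, 55307750 to 55520803, plus strand), was at 1166, 524, 384 and 1135 CPM in YFP- and 727, 402, 245 and 654 CPM in YFP+ replicates 1 to 4. Numbers 1 and 4 were high and numbers 2 and 3 low in both groups, so that the groups overlapped although the YFP+ library was at 0.576 to 0.768 of its partner. The log2 fold change was -0.63 (95% confidence interval -0.78 to -0.48; adjusted p = 1.5e-04, edgeR). Col16a1 was at 456, 323, 357 and 483 CPM and then 409.9, 275, 271 and 374 CPM in the same order, lower in each pair, at a log2 fold change of -0.29 (95% confidence interval -0.43 to -0.15; adjusted p = 0.0265, edgeR). It lost its call without number 3 or 4 (adjusted p = 0.214 and 0.140, edgeR) and with library sizes alone (0.141).

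Col22a1, a FACIT known from tissue junctions such as that of muscle and tendon (ENSMUSG00000079022, GRCm38 chromosome 15, 71795795 to 72034227, minus strand), was at 11.6, 11.2, 14.9 and 19.1 CPM in YFP- and 24.9, 14.9, 25.7 and 28.2 CPM in YFP+ replicates 1 to 4. YFP+ replicates 1, 3 and 4 lay above all YFP- libraries and replicate 2 did not. The log2 fold change was 0.72 (95% confidence interval 0.39 to 1.06; adjusted p = 0.0241, edgeR), and the call was lost without number 1, 3 or 4 (adjusted p = 0.149, 0.166 and 0.0814, edgeR). Col12a1, the other abundant FACIT of fibril surfaces, was at 858, 997, 1136 and 949 CPM in YFP- and 974, 1026, 1414 and 1055 CPM in YFP+ replicates 1 to 4. It was higher in 4 of 4 pairs, but was not called (log2 fold change 0.17, adjusted p = 0.236, edgeR), whereas voom called it (adjusted p = 0.0346), as did edgeR with library sizes alone (adjusted p = 0.0317). Col20a1, at a mean of 16.7 and 11.4 CPM, and Col9a3, at 4.93 and 4.77 CPM, were not called either, and Col9a1, Col9a2 and Col19a1 were too low to test, with at most 73 counts over the 8 libraries.

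Transmembrane collagens span the plasma membrane of the cell that makes them. Col13a1 (ENSMUSG00000058806, GRCm38 chromosome 10, 61838236 to 61979108, minus strand) was at 20.5, 74.7, 15.7 and 15.0 CPM in YFP- and 20.9, 108, 28.3 and 28.7 CPM in YFP+ replicates 1 to 4. Both libraries of number 2 stood far above the rest, and within the pairs the folds were 1.02, 1.44, 1.80 and 1.92. It rose by a log2 fold change of 0.59 (95% confidence interval 0.29 to 0.88; adjusted p = 0.0349, edgeR), and lost the call without number 2, 3 or 4 (adjusted p = 0.113, 0.230 and 0.191, edgeR). Col23a1, at 45.3, 83.2, 89.1 and 58.0 CPM in YFP- and 42.2, 74.4, 96.0 and 52.0 CPM in YFP+ replicates 1 to 4, was lower in 3 of 4 pairs and was not called (adjusted p = 0.861, edgeR). Col17a1, a hemidesmosome collagen of basal epithelium, was at 2.23, 1.28, 2.26 and 1.21 CPM and then 0.792, 34.7, 0.640 and 0.119 CPM in the same order. The epithelial markers summed to 6.72, 21.1, 0.600 and 115 CPM in YFP+ replicates 1 to 4. Whether epithelial cells gave the Col17a1 reads was not tested. Col25a1, a chain known from neurons, was at 1.67, 2.39, 0.944 and 0.354 CPM and then 1.34, 4.42, 1.00 and 1.58 CPM in the same order and was not called.

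Upstream of Col13a1, the transmembrane chain that rose, the window reads as follows, with capitals as before.
Col13a1 (chr10:61979109-61979358, minus strand): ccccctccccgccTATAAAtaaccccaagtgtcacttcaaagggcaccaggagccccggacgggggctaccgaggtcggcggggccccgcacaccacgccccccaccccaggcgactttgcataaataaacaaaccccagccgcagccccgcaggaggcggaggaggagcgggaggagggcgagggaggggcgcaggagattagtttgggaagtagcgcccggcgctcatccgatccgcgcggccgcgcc
It held 68.8% G and C and 1 match to TATAAA, 237 bases before the start.

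Col8a1, a short chain of the network type found around vessels (ENSMUSG00000068196, GRCm38 chromosome 16, 57624258 to 57754737, minus strand), was called by some tests and not by others. It was at 94.9, 56.2, 63.3 and 102 CPM in YFP- and 52.1, 60.4, 32.5 and 42.2 CPM in YFP+ replicates 1 to 4, lower in numbers 1, 3 and 4 and slightly higher in number 2. Its log2 fold change was -0.76 (95% confidence interval -1.33 to -0.20; adjusted p = 0.262, edgeR). Without number 2 it was -1.03 (adjusted p = 2.4e-05, edgeR), and with all pairs it was called by DESeq2 with the block (adjusted p = 4.8e-04), by voom (adjusted p = 5.2e-04) and by edgeR with every gene of at least 1 count kept (adjusted p = 1.9e-08). Its partner Col8a2 was at 1.56, 0.256, 1.05 and 3.04 CPM in YFP- and 1.21, 2.00, 0.880 and 0.831 CPM in YFP+ replicates 1 to 4, lower in 3 of 4 pairs and not called, and Col10a1 had 1 count in all. Col7a1, the chain of the anchoring fibrils that tie epithelium to stroma, was at 6.57, 5.03, 5.70 and 7.89 CPM in YFP- and 6.92, 12.2, 3.84 and 4.91 CPM in YFP+ replicates 1 to 4. It was high in YFP+ replicate 2, without a common direction over the pairs. Col26a1 and Col28a1 belong to no larger class. Col26a1 was at 0.668, 1.19, 0.337 and 0.202 CPM in YFP- and 0.517, 2.07, 0.0800 and 0.871 CPM in YFP+ replicates 1 to 4, and Col28a1 at 1.39, 0.937, 5.09 and 4.05 CPM in YFP- and 1.21, 0.414, 1.20 and 1.23 CPM in YFP+ replicates 1 to 4. Col28a1 was lower in 4 of 4 pairs but was not called (log2 fold change -1.32, adjusted p = 0.348, edgeR).

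**Figure D3:**
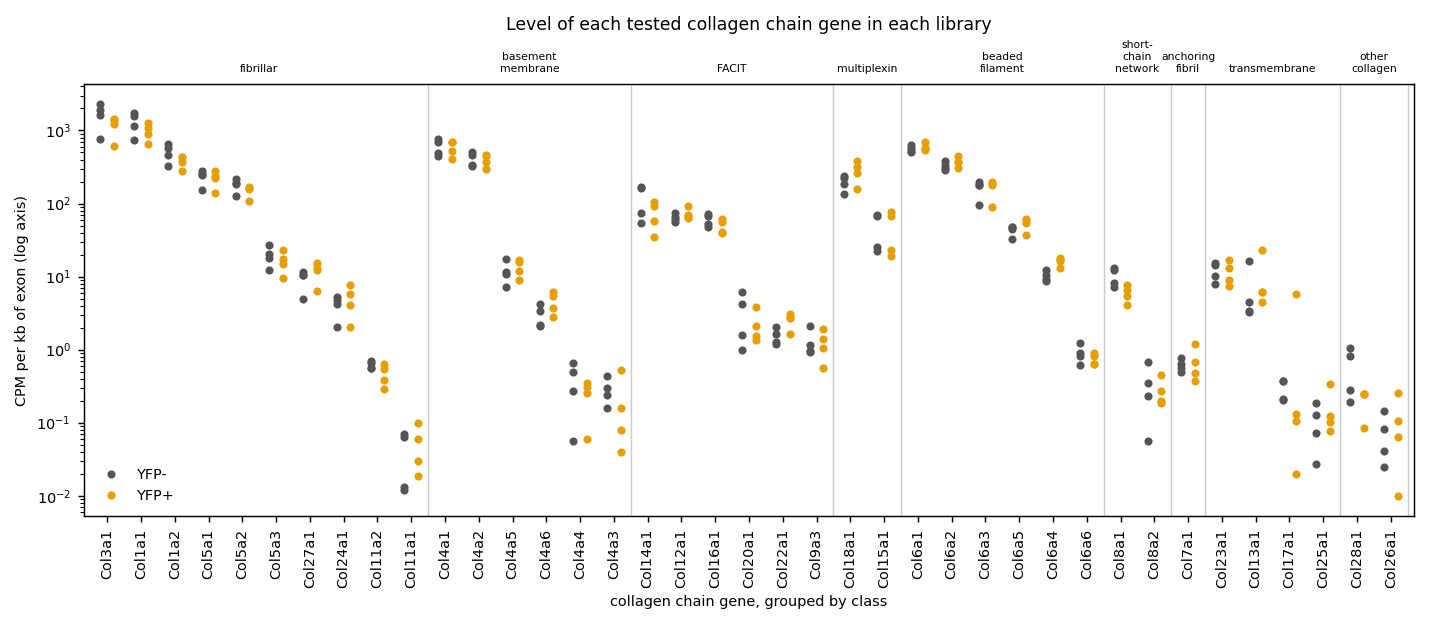
CPM per kb of exon, on a log axis, of the 39 tested members in each of the 4 YFP- and 4 YFP+ libraries, grouped by class. Col3a1 and Col1a1 stand highest, at a mean of 1412 and 1141 CPM per kb over all libraries.

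Levels between chains were compared per kb of exon. Col3a1 led, at 1663 ± 665 in YFP- and 1162 ± 375 in YFP+ cells in CPM per kb (mean ± SD, n = 4), followed by Col1a1 at 1305 ± 447 in YFP- and 978 ± 262 in YFP+ cells. Col3a1 stood above Col1a1 per kb of exon in 7 of 8 libraries, with a ratio of 0.945 in the exception, YFP+ replicate 2, and above it in 8 of 8 per kb of the longest coding transcript. Col4a1, Col6a1, Col1a2, Col4a2 and Col6a2 came next, at means of 352 to 589 CPM per kb over all libraries, and then Col18a1 at 239, Col5a1 at 226, Col5a2 at 164 and Col6a3 at 162. With the longest coding transcript as the length, Col1a2 moved from the fifth to the third place, and Col5a2 (238 CPM per kb) stood above Col5a1 (228).

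Summed over classes, fibrillar chains were at 35117 ± 12007 CPM in YFP- and 26136 ± 7059.9 CPM in YFP+ libraries (n = 4). The YFP+ library was at 0.785, 0.850, 0.781 and 0.638 of its partner in pairs 1 to 4. Fibrillar chains made up 63.4% ± 9.53 of all collagen chain reads in YFP- and 56.1% ± 6.96 in YFP+ libraries, a share that was lower in the YFP+ library of every pair. Beaded filament chains took 14.4% ± 2.15 and 18.2% ± 1.40, and multiplexins 3.09% ± 0.359 and 4.82% ± 0.968, both higher in every pair. Basement membrane chains took 14.6% ± 6.97 and 16.1% ± 5.99, higher in 3 of 4 pairs, with 24.1% and 24.0% in the libraries of number 2. These sums are descriptions, since a few abundant chains set them and shares of a whole cannot move independently.

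**Figure D4:**
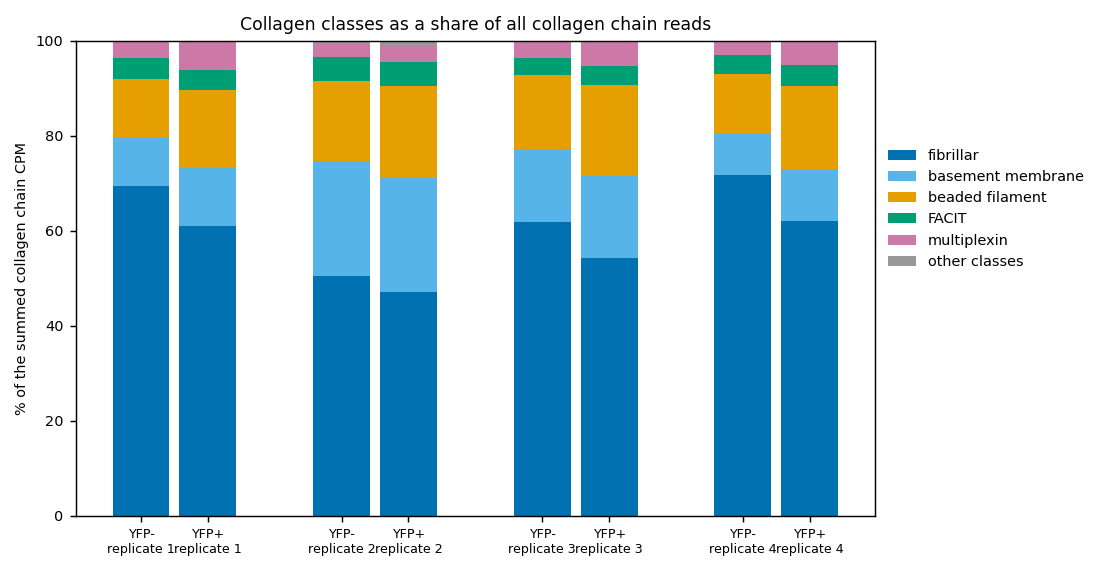
Stacked bars of the share of each collagen class in the summed collagen chain CPM of each library, with the YFP- and YFP+ library of a replicate number side by side. The fibrillar share is lower in the YFP+ bar of all 4 pairs, and in number 2 it is the lowest of each group, at 50.6% and 47.1%.

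The genes that make, cut, bind and degrade collagen were counted from the same fit, against the background of 2.28%. Of 20 enzymes and chaperones of collagen synthesis and folding, 0 rose and 1 fell: Plod2, a lysyl hydroxylase, went from 186 ± 64.7 to 146 ± 41.0 CPM (n = 4; adjusted p = 0.0205, edgeR). Of 13 genes of procollagen cleavage and crosslinking, 0 rose and 4 fell. Adamts2, a procollagen N-proteinase, and Pcolce2, an enhancer of C-proteinase cleavage, had log2 fold changes of -0.47 and -1.43 (adjusted p = 9.2e-04 and 0.0105, edgeR), and the others, named after their values were seen, were the crosslinking oxidases Lox and Loxl1. Of 10 tested collagen receptors none was called; the most abundant, Itgb1 and Ddr2, had log2 fold changes of 0.13 and -0.08 (adjusted p = 0.450 and 0.735, edgeR). Of 10 collagen-degrading genes 0 rose and 2 fell, the fibroblast protease Fap (-0.60, adjusted p = 0.00382) and the membrane metalloproteinase Mmp16 (-0.65, adjusted p = 0.00659, edgeR). Of 18 partners of collagen in the basement membrane, 2 rose and 2 fell: the laminin chain Lama1 rose (0.31, adjusted p = 0.0167), and Sparc and Fbln2 fell (-0.32 and -0.31, adjusted p = 0.0133 and 0.0151, edgeR). The laminin chain Lama3 rose in 3 of 4 pairs, from 0.453 ± 0.393 to 5.39 ± 5.81 CPM (n = 4), set by YFP+ replicates 2 and 4 at 12.1 and 8.39 CPM (adjusted p = 0.0439, edgeR).

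Markers of other stromal states moved with the same contrast. Over all genes tested, the background for these counts, 0.696% rose and 1.59% fell. Of 8 markers of adventitial fibroblasts, 0 rose and 5 fell, and their summed level was 1109.9 to 1444 CPM in YFP- and 772 to 1040.2 CPM in YFP+ libraries, lower in the YFP+ library of 4 of 4 pairs. Of 7 tested markers of subepithelial fibroblasts, 5 rose and 0 fell, with a summed level of 1441 to 1842 CPM in YFP- and 1677 to 2309 CPM in YFP+ libraries, higher in 4 of 4 pairs. Foxl1, also on that list, had 0 counts in the 8 libraries. Enteric glia markers (1 of 4 tested fell) summed to 7.13 to 44.8 CPM in YFP- and 4.28 to 7.32 CPM in YFP+ libraries. That sum was lower in 4 of 4 pairs. Leukocyte markers summed to 4.18 to 17.5 CPM in YFP- and 8.96 to 34.7 CPM in YFP+ libraries, higher in 3 of 4 pairs. Without Ptprc, the most abundant of them, the leukocyte sum was higher in 4 of 4 pairs. It was then at 3.30 to 14.8 CPM in YFP- and 6.88 to 22.5 CPM in YFP+ libraries. Epithelial markers summed to 1.42 to 20.8 CPM in YFP- and 0.600 to 115 CPM in YFP+ libraries and endothelial markers to 16.6 to 74.2 CPM in YFP- and 12.6 to 109.7 CPM in YFP+ libraries, each higher in 2 of 4 pairs. None of 6 epithelial, 5 endothelial, 6 leukocyte and 3 mesothelial markers tested was called. Of 6 pericyte markers, Cspg4 rose and Rgs5, the most abundant, fell (both named after their values were seen). The sum over the list was lower in 4 of 4 pairs with Rgs5 and higher in 4 of 4 without it, at 315 to 473 CPM in YFP- and 332 to 558 CPM in YFP+ libraries. Among 8 general fibroblast markers, 0 rose and 3 fell. Their summed level was 9827 to 12139 CPM in YFP- and 8275 to 9653 CPM in YFP+ libraries. It was lower in the YFP+ library of 4 of 4 pairs, with or without Dcn, the most abundant. Pdgfra, also on this list, was not among those that fell. The share of mitochondrially encoded counts was lower in the YFP+ library of each pair. The part of these shifts in the collagen changes was not tested.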

How the data were processed

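RNA from sorted stromal cells of mouse small intestine was sequenced in 8 libraries (low-input stranded kit for total RNA, per the labels' protocols). The submitters' processing notes name cutadapt 3.4, STAR 2.7.3a, featureCounts 2.0.1, DESeq2 and the build GRCm38; the settings, annotation release and strand option of the counting are unknown here. In the deposited table, the raw counts of each gene are whole numbers per library. Beside them stand the authors' normalised values (scores from counts and a size factor) and, per the file headers, the log2 fold change, linear fold (ratio) and p-values of the authors' comparison, used here only where named.

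The tests used edgeR 4.0.16 (R 4.3.3) on the deposited counts: filterByExpr by group (15945 genes), TMM, a robust quasi-likelihood fit with group and, as a block, the replicate number, two-sided, Benjamini-Hochberg adjusted over all genes and called at 0.05. The interval of a fold change follows from an SE equal to its size over the root of the F statistic. Libraries of equal number deviated together: the correlations of their deviations from the group mean were 0.383, 0.643, 0.528 and 0.517, and the highest between unequal numbers was 0.0897. The block was taken from the replicate numbers in the titles, which do not say what libraries of equal number share. These correlations come from the same counts as the tests. DESeq2 1.42.0 with the block gave adjusted p-values within 5.0e-04 of the authors' and the same 496 calls. Libraries of a group were distinct (chi-square over degrees of freedom at least 56.6). The fit was also run on simulated counts, drawn with its own dispersions and from means per replicate number. That run has the pairing built in and so cannot check it.

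Coordinates and exon lengths come from GENCODE M21 (GRCm38), which holds 53620 of the 53801 identifiers, and promoters from RefSeq (GRCm38.p6), matched by symbol. Named genes were the called members, the 2 most abundant members of each class per kb, members called by DESeq2 or the authors, and up to 2 called genes per direction of 5 pathway lists (with none called, the 2 most abundant); other members are named to account for each. Members, lists, tests and the block were chosen with earlier results of these data known. Alternatives were no block, DESeq2, voom (limma 3.58.1), other factors and filters, and the removal of each replicate number.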

Additional observations from a re-analysis of the deposited data

Results flagged for a closer look

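Of 78 groups of 4 libraries over the tested members, 7 held a value that stood apart from the rest by Dixon's criterion. That criterion is the gap to the nearest library over the whole range, and chance flags about 1 in 20 groups. All 7 values were in libraries of replicate number 2. Col13a1 was high in both groups, at 74.7 CPM against 15.0 to 20.5 CPM in the other 3 for YFP- and 108 CPM against 20.9 to 28.7 CPM in the other 3 for YFP+ cells. In YFP+ replicate 2, Col17a1 was high at 34.7 CPM against 0.119 to 0.792 CPM in the other 3, and Col25a1 at 4.42 CPM against 1.00 to 1.58 CPM in the other 3. In the same library Col6a3 was low at 1084 CPM against 2169 to 2357 CPM in the other 3, Col5a2 at 1042 CPM against 1514 to 1609 CPM in the other 3, and Col28a1 at 0.414 CPM against 1.20 to 1.23 CPM in the other 3.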

How the results depend on the processing

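Without the replicate block, edgeR called 0 of all genes, 0 collagen chain genes (0 higher, 0 lower) and 0 pathway genes, against 364, 13 (7 and 6) and 11 with it. With a replicate number left out, the blocked test called 157 to 426 genes, 4 to 11 collagen chain genes (2 to 5 higher and 2 to 6 lower) and 4 to 9 pathway genes, with the lowest totals without number 3. Over all genes, voom called 616 and the filter on any count 673. The split of all calls was 111 higher and 253 lower with TMM and 212 and 153 with library sizes alone, which moved the median of all genes to 0.091; members went from 7 and 6 to 9 and 4. Over 13 other blocked settings, no called member turned in direction, and Col6a4, Col14a1 and Col18a1 kept their calls in each. Of the 26 tested members that were not called, 12 turned in direction in at least 1 setting. With library sizes alone, Col4a1 was at 0.0354, Col4a2 at 0.0475, Col15a1 at 0.0239 and Col23a1 at 0.0105 (log2), and the receptor gene Ddr2, no member, at 0.00741. Col7a1, with its range of -0.39 to 0.25 over the removals of a replicate number, was at -0.0783 with voom, -0.00188 with RLE factors and turned without number 1 or 2. Col8a2 ranged from -0.82 to 0.57 and turned without number 1 or 4, and Col26a1 ranged from -0.38 to 0.79 and turned without number 2 or 4. Likewise Col11a1 ranged from -0.49 to 1.25 and turned without number 2 or 4, Col20a1 from -0.58 to 0.0852 (without number 1), Col9a3 from -0.34 to 0.21 (without number 3) and Col6a3 from -0.0377 to 0.0410 (without number 1). Col17a1 ranged from -2.09 to 0.19, turned without number 3 or 4, and was at 2.35 without the block and 1.84 with voom. The cause was not tested. The length of the longest coding transcript, in place of the exon length, the background of genes at 10 CPM or more and the marker sums without the most abundant gene were chosen after seeing the data. Of the 12 tested members under 10 CPM, changes smaller than their wide intervals were not detectable at this depth.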
